A study of Mus musculus with 3 samples.

Results

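The clustered replication-dependent histone genes were described in ALSCs, mouse primed stem cells that are maintained with Activin A and LIF. The set was formed by name: every protein-coding gene of the count table whose symbol begins with *Hist1h*, *Hist2h*, *Hist3h*, or *Hist4h* was taken. This gave 67 of 55421 named genes, of which 6 encode the linker histone H1 and 18, 18, 12, and 13 encode the core histones H2A, H2B, H3, and H4. The *Hist1* cluster on chromosome 13 holds 54 of them, *Hist2* on chromosome 3 holds 10, *Hist3* on chromosome 11 holds 2, and *Hist4* on chromosome 6 holds 1 (build GRCm38).

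RNA-seq had been performed on 3 libraries of ALSCs (replicates 1, 2, and 3), all of 1 condition. The cells came from epiblasts of embryos at embryonic day 6.5, whose mothers were ICR mice and whose fathers carried the GOF/GFP transgene on a mixed background. No treatment, deletion, or other genotype separates the libraries. The study describes its RNA-seq samples as biological replicates, whereas the labels do not say which lines or cultures the libraries came from, so it is not known which steps the spread between them covers. The 3 libraries held 18088505, 18724038, and 18037342 counts on named genes, and pluripotency genes were high in each of them (*Pou5f1* 648 ± 25.3, *Nanog* 171 ± 18, and *Sox2* 119 ± 5.21 FPKM; mean ± SD, n = 3), whereas the trophoblast genes *Cdx2*, *Elf5*, and *Hand1* had at most 1 count in any library. The epiblast genes *Dnmt3b*, *Otx2*, and *Fgf5* were at 281, 5.08, and 3.89 FPKM, and the 3 endoderm genes checked were below 1 FPKM. Among the other lineage genes checked, *Sox1* of 2 neural genes (8.18 FPKM), *Eomes* of 3 mesoderm genes (1.32 FPKM), and *Col1a1* of 5 fibroblast genes (5.04 FPKM) lay above 1 FPKM, with the fibroblast genes *Dcn* and *Lum* at 0 counts.

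Canonical histone genes lie in clusters, mostly lack introns, and are transcribed chiefly in S phase, when new DNA has to be packed into nucleosomes. Their mRNAs end in a conserved stem-loop instead of a poly(A) tail. The stem-loop is bound by SLBP, and the U7 snRNP with its proteins Lsm10 and Lsm11 guides the cut behind it. Some of these genes can also give polyadenylated transcripts by use of a signal farther downstream. The libraries described here were made from poly(A) RNA, so a count stands for a read that passed this selection and not for the cell's whole pool of histone mRNA.

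To show the feature that sets these mRNAs apart, the stem-loop of the highest member of each histone type that has one, and that of *Hist1h2bk* with other letters, are given here as DNA letters of the transcript, 5′ to 3′. They were read from the GENCODE M21 transcripts of GRCm38, with the 16 bases of the stem-loop in capitals and 5 bases on each side in lower case. The windows lie at chr11:58949344-58949369 (plus strand) for *Hist3h2ba*, chr13:23739507-23739532 (plus) for *Hist1h1c*, chr13:21810893-21810918 (plus) for *Hist1h2ao*, chr13:23535884-23535909 (plus) for *Hist1h3g*, chr13:22040961-22040986 (minus) for *Hist1h4i*, and chr13:22036295-22036320 (plus) for *Hist1h2bk*. All 6 lie in the 3′ UTR. The last line is the stem-loop of *H2afx*, a variant gene outside the clusters, at chr9:44335235-44335260 (plus).
Hist3h2ba: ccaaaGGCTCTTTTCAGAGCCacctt
Hist1h1c: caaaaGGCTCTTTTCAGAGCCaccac
Hist1h2ao: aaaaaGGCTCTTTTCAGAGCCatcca
Hist1h3g: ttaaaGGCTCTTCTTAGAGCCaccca
Hist1h4i: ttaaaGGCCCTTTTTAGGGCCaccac
Hist1h2bk: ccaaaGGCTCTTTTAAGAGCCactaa
H2afx: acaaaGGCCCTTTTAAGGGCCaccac

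A stem-loop of the histone consensus was found in 46 of the 67 members, which comprised 4 of 6 H1, 11 of 18 H2A, 10 of 18 H2B, 9 of 12 H3, and 12 of 13 H4 genes. It began 21 to 58 bases after the stop codon, with a median of 31. Across the 46 genes it had 8 letter versions. The version of *Hist3h2ba*, *Hist1h1c*, and *Hist1h2ao* was the most frequent, with 26 genes of the types H1, H2A, H2B, and H3. Of the 8 versions, 4 were seen only among the 12 H4 genes. For comparison with other genes, only the longest coding transcript of each gene was searched, which leaves out matches in other transcripts. In genes whose longest transcript with a coding sequence is annotated as protein-coding and has a 3′ UTR, the consensus lay within 150 bases of the stop codon in 45 of 52 members (86.5%) and in 3 of 20202 other protein-coding genes (0.0149%). These 3 were *H2afx*, *H2bfm*, which encodes an H2B variant, and *Btbd10*. The search covered annotated transcripts only, and 13 of the 21 members without a match have no annotated 3′ UTR at all.

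Promoter sequences were read from RefSeq (GRCm38.p6; 250 bases before to 50 bases after the gene start) for the 62 members that could be matched. The octamer ATTTGCAT, which POU factors such as Oct1 can bind and which is known from histone H2B promoters, was present on either strand in 7 of 18 H2A and 6 of 16 H2B promoters, against 1.74% of the 32851 promoters in the table. It was absent from the windows of the 6 H1, 10 H3, and 12 H4 genes. The letters TATAAA were found on either strand in 35 of 62 windows (56.5%) and in 13.6% of all promoters. The letters CCAAT were found in 53 of 62 (85.5%) and in 37.4% of all promoters, with all H1, H2A, H2B, and H3 windows holding a match but only 3 of 12 H4 windows. The motifs were searched separately, none of them contains another, and a match describes the sequence and is not evidence of binding.

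H2A and H2B genes often stand back to back on opposite strands, and 12 such pairs were found with starts 176 to 306 bases apart. Both genes of a pair can therefore hold the same octamer, read in opposite directions. In the counts of promoters given above, such a site was entered under each gene. This applied to *Hist1h2aa* and *Hist1h2ba* and to the pairs shown next. The window of *Hist1h2ae* and *Hist1h2bg* at chr13:23571330-23571359, and that of *Hist1h2ah* and *Hist1h2bk* at chr13:22035780-22035809, are shown for each gene on its own strand, minus for the H2A gene and plus for the H2B gene, with the octamer or its reverse complement in capitals.
Hist1h2ae: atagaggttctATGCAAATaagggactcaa
Hist1h2bg: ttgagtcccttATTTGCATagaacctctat
Hist1h2ah: tagaacttcgtATGCAAATaaagtgaaatg
Hist1h2bk: catttcactttATTTGCATacgaagttcta

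Clustered histone genes were at low levels in the poly(A) RNA of ALSCs. The 67 genes together received 976, 804, and 763 counts in replicates 1, 2, and 3, which is 0.00540% (exact 95% binomial interval 0.00506 to 0.00575%), 0.00429% (0.00400 to 0.00460%), and 0.00423% (0.00394 to 0.00454%) of all counts. Replicate 1 held the largest share, and its interval lay apart from those of replicates 2 and 3, which overlapped each other. All intervals and floors given here cover counting error only. In bulk RNA, a lower share of cells in S phase and less histone RNA per cell cannot be told apart.

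FPKM divides a count by the length of the gene model and by the total of the library, so that genes of unequal length can be set side by side. At this depth, 1 count on a gene model of 1 kb was worth 0.0534 to 0.0554 FPKM. In each of the 3 libraries, a level of at least 1 FPKM was reached by 10 of the 67 members (14.9%), against 10023 of 21926 protein-coding genes (45.7%). A further 14 members reached 1 FPKM in some libraries, and 43 stayed below it in each. The median of the members' mean levels was 0.380 FPKM. By counts, 33 members had more than 3 in every library, 15 had more than 3 in some, 10 had 1 to 3 in at least one library and never more, and 9 had none at all. The 10 most counted members held 63.4% of the histone counts.

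**Figure D1:**
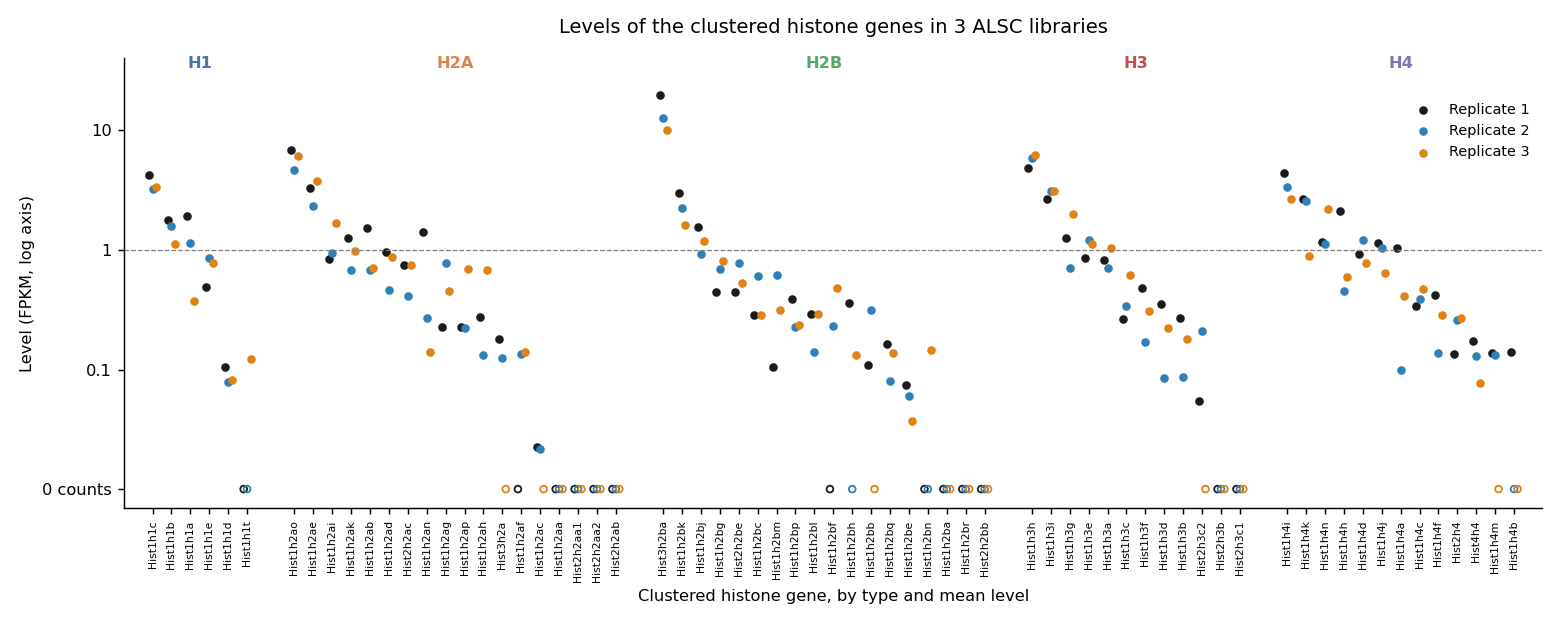
Level of each of the 67 clustered histone genes in FPKM (log axis) in the 3 ALSC libraries, ordered by histone type and mean; each point is 1 library, open points at the bottom are libraries with 0 counts, and the dashed line marks 1 FPKM. Only *Hist3h2ba*, at 10.1 to 19.8 FPKM, lies above 10 FPKM, and 10 genes lie at or above the dashed line with all 3 points.

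H1 genes encode the linker histones, which bind the DNA between nucleosomes. Their summed level was 8.53, 6.89, and 5.85 FPKM in replicates 1, 2, and 3 (7.09 ± 1.35, n = 3). This sum was the lowest of the 5 types in every library, but it runs over only 6 genes. The median H1 gene, at 0.931 FPKM, was the highest of the 5 types, against 0.239 to 0.512 FPKM for the others. *Hist1h1c* (chr13:23738808-23740367, plus strand) led with 119, 94, and 95 counts, or 4.22, 3.22, and 3.38 FPKM (3.60 ± 0.537). It was the second most counted member of all, and 91.5% of its 50-base words occur in no other gene. *Hist1h1b* had 24, 22, and 15 counts (1.5 ± 0.341 FPKM).

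*Hist1h1a* was spread more widely over the libraries, with 26, 16, and 5 counts or 1.94, 1.15, and 0.374 FPKM. *Hist1h1e* was lowest in replicate 1, at 17 counts against 31 and 27 (0.707 ± 0.195 FPKM). *Hist1h1d*, whose model of 7425 bases is the longest of the set, had 14, 11, and 11 counts and therefore only 0.0885 ± 0.0137 FPKM. The testis H1 gene *Hist1h1t* had 0, 0, and 2 counts, all within the 3 counts that define the floor.

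H2A genes encode the histone that pairs with H2B in the nucleosome core. Their summed level was 17.8, 11.9, and 17.0 FPKM (15.6 ± 3.20). *Hist1h2ao* (chr13:21810465-21810944, plus strand) held the largest part of it, with 59, 42, and 53 counts or 6.80, 4.67, and 6.12 FPKM (5.86 ± 1.08). Its coding sequence is identical to that of *Hist1h2ap*, which had 2, 2, and 6 counts, and only 6.5% of its 50-base words are found in no other gene, so how reads were divided between the copies is uncertain.

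*Hist1h2ae* (chr13:23570517-23571220, minus strand) was better separated, at 56.8% unique words, and had 42, 31, and 48 counts or 3.30, 2.35, and 3.78 FPKM (3.14 ± 0.727). No other H2A gene reached 1 FPKM in each library. *Hist1h2ai* (6, 7, and 12 counts; 1.16 ± 0.462 FPKM) and *Hist1h2ak* (9, 5, and 7 counts; 0.978 ± 0.293 FPKM) followed, and the former shares all but 9.88% of its words with other genes. *Hist1h2ac*, with a model of 2482 bases, had 1, 1, and 0 counts, and the testis gene *Hist1h2aa* had none, which allows up to 0.421 FPKM.

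All 18 H2A genes are overlapped on the opposite strand by another annotated gene, in most cases a predicted miRNA gene with 0 counts in every library. The strand setting of the counting is not given in the sources used here, so reads of overlapping genes on opposite strands may not have been told apart. In all, 24 of the 67 members overlap an exon of another gene.

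H2B genes had the highest mean sum, 27.1, 19.5, and 16.3 FPKM (21 ± 5.50), and this rested on 1 gene. *Hist3h2ba* (ENSMUSG00000056895; chr11:58948920-58949533, plus strand) had 220, 145, and 112 counts or 19.8, 12.6, and 10.1 FPKM (14.2 ± 5.03), which is 18.8% of all histone counts. It was the highest member in each library, and its mean exceeded that of 65.4% of the genes that reached 1 FPKM in each library. Its gene model runs 169 bases past the stem-loop shown above, 77.9% of its words are unique, and its promoter window holds no octamer match.

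The 15 H2B genes of the *Hist1* cluster summed to 6.21 ± 0.556 FPKM only. *Hist1h2bk* had 26, 20, and 14 counts or 3.02, 2.24, and 1.63 FPKM (2.30 ± 0.696). *Hist1h2bj* had 13, 8, and 10 counts (1.22 ± 0.316 FPKM), and *Hist1h2bg* had 5, 8, and 9 (0.649 ± 0.184 FPKM).

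The 4 H2B genes with models over 2000 bases had levels below 1 FPKM. *Hist2h2be*, with a model of 2620 bases and 100% unique words, had 21, 38, and 25 counts but 0.582 ± 0.172 FPKM. *Hist1h2be* (4446 bases) had 6, 5, and 3 counts, *Hist1h2bq* (2015 bases) had 6, 3, and 5, and *Hist1h2br* (2212 bases) had none. The model of *Hist1h2be* also overlaps *Hist1h1e* on the same strand. The testis gene *Hist1h2ba*, the divergent partner of *Hist1h2aa*, had 0 counts in all libraries, which allows up to 0.427 FPKM.

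H3 genes encode the core histone whose tail carries many of the known regulatory modifications. They summed to 11.9, 12.5, and 14.8 FPKM (13.1 ± 1.53) and were the only type with its lowest value in replicate 1. *Hist1h3h* (chr13:21717659-21718069, plus strand) led with 36, 45, and 46 counts or 4.84, 5.85, and 6.21 FPKM (5.63 ± 0.707). *Hist1h3i* followed with 20, 24, and 23 counts or 2.69, 3.12, and 3.10 FPKM (2.97 ± 0.243). Both are annotated without a 3′ UTR and have few words of their own (6.08% and 12.4%), so their counts may hold reads of other H3 genes. *Hist1h3g* varied from 7 to 19 counts (1.31 ± 0.643 FPKM), and *Hist1h3e* had 13, 19, and 17 (1.07 ± 0.185 FPKM).

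H4 genes encode the partner of H3. Their summed level was 14.8, 10.9, and 9.28 FPKM (11.7 ± 2.82). *Hist1h4i* (chr13:22040636-22041362, minus strand) had 58, 46, and 35 counts or 4.41, 3.38, and 2.67 FPKM (3.49 ± 0.876), with 71.1% unique words. *Hist1h4k* had 15, 15, and 5 counts (2.04 ± 0.997 FPKM), and its model of 312 bases is the shortest of the set, so that few counts gave a high value. *Hist1h4n* had 9, 9, and 17 counts (1.49 ± 0.609 FPKM) and shares its coding sequence with *Hist1h4m*, which had 1, 1, and 0. *Hist1h4h* had 18, 4, and 5 counts (1.05 ± 0.923 FPKM), and *Hist4h4*, the single gene of its cluster, had 9, 7, and 4 over 2863 bases (0.127 ± 0.0482 FPKM).

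The order of the 5 types was not stable across libraries. H2B, H2A, H4, H3, and H1 was the order in replicate 1, whereas H3 stood above H2A in replicate 2 and H2A stood above H2B in replicate 3. Neighbours in the order of the means, H2B, H2A, H3, H4, and H1, differed by less than the larger SD of the pair for H2B and H2A, for H2A and H3, and for H3 and H4. Only H1, the type with the fewest genes, was last by sum in each library. By cluster, *Hist1* summed to 58.5, 47.2, and 51.5 FPKM (52.4 ± 5.72), *Hist3* to 14.3 ± 5.12, and *Hist2* to 1.38, 1.66, and 1.55 (1.53 ± 0.141). The 2 genes of *Hist3* were far apart, since *Hist3h2a* had 7, 5, and 0 counts over a model of 2146 bases (0.102 ± 0.0923 FPKM).

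The members of 1 type are so alike that a read may match several of them. Between coding sequences of equal length, the median identity was 96.4% for H2A, 94.8% for H2B, 97.6% for H3, and 93.9% for H4, and 3 pairs were identical. Uniqueness was therefore measured as the share of 50-base words of the longest coding transcript that occur in no other gene, on either strand. Other genes here include annotated genes that overlap a member. The share is thus lowered by overlap as well as by likeness between members. It was 0% for 5 genes of the *Hist2* cluster (*Hist2h2aa1*, *Hist2h2aa2*, *Hist2h2bb*, *Hist2h3b*, and *Hist2h3c1*), and all 5 had 0 counts in every library. These 5 are also the only members whose exon bases are overlapped over 100% by other annotated genes, mostly lncRNA genes of the *Gm* series with at most 4 counts in a library. *Hist2h2bb* shared words with only 2 genes, and *Gm42743* and *Gm20628* overlap it, so its 0% need not involve another histone gene. The zeros of these 5 genes cannot be told apart from reads that were not assigned. The handling of reads in overlapping genes, and of reads with several positions, is not given in the sources used here.

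Zeros were not limited to these genes. The other 4 genes with 0 counts, *Hist1h2aa*, *Hist1h2ba*, *Hist1h2br*, and *Hist2h2ab*, had 76.2%, 61.8%, 11.5%, and 35.2% unique words. Conversely, *Hist1h2ao* and *Hist1h3h*, the next highest members after *Hist3h2ba*, had 6.5% and 6.08%. Summed levels ran from 16.8 to 21.5 FPKM over the libraries for the 14 genes above 0% and up to 20%, from 17.1 to 23.6 FPKM for the 25 genes above 20% and up to 60%, and from 22.4 to 37.6 FPKM for the 23 genes above 60%. Across the 67 genes, Spearman's rho between unique words and mean level was 0.136, and between unique words and total count 0.358, given as a description of genes that share libraries and sequence. With words of 150 bases, rho was 0.172 and 0.327. The unique share then rose to 100% for *Hist3h2ba* and 47.3% for *Hist1h3i*, but only to 8.46% for *Hist1h2ao* and 9.54% for *Hist1h3h*. The 9 genes at 0, *Hist1h2ap*, *Hist1h2ah*, and *Hist1h4m* are named after their values had been seen.

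**Figure D2:**
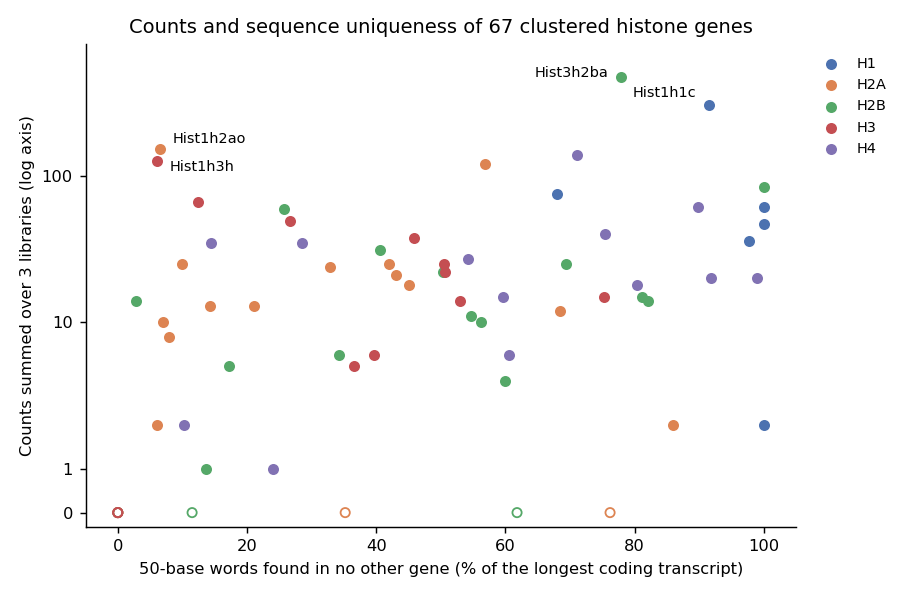
Counts summed over the 3 ALSC libraries (log axis, open points at 0) against the share of 50-base words found in no other gene, for the 67 clustered histone genes coloured by type. The 5 genes at 0% all had 0 counts and lie on top of each other, while *Hist1h2ao* and *Hist1h3h* had over 100 counts with few unique words.

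Levels were then compared within the 12 divergent pairs, as reads in poly(A) RNA and not as output of their promoter regions. The H2A gene was higher by mean FPKM in 8 pairs, the H2B gene in 3, and in 1 pair, *Hist1h2aa* and *Hist1h2ba*, both were at 0. In 6 of the 8 pairs and in all 3 the order was the same in every library. In the *Hist2h2ac* and *Hist2h2be* pair it was not: the means were 0.634 ± 0.193 and 0.582 ± 0.172 FPKM, and by counts the H2B gene, with the longer model, was higher (84 against 18 in total). The order also changed between libraries for *Hist1h2an* and *Hist1h2bp*, named after their values had been seen, with 13 and 11 counts in total. Of the octamer pairs shown above, *Hist1h2ae* lay at 2.35 to 3.78 FPKM and *Hist1h2bg* at 0.447 to 0.807 FPKM, without overlap between their libraries. The other pair was ordered the opposite way, with *Hist1h2bk* at 1.63 to 3.02 FPKM and *Hist1h2ah* at 0.132 to 0.684 FPKM, and only 7.87% of the words of *Hist1h2ah* are unique. The largest gap was between *Hist1h2ao* (5.86 FPKM) and *Hist1h2bq* (0.127 FPKM), which have 6.5% and 2.75% unique words.

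Gene models were then grouped by where they end, since a transcript that runs past the stem-loop can carry a poly(A) tail at a later site. The 23 genes whose model extends 100 bases or more past the stem-loop held 58.5% of the histone counts, with 38.9, 28.2, and 26.2 summed FPKM (31.1 ± 6.82). The 23 genes that end within 100 bases held 20.4%, with 22.2, 15.4, and 20.3 FPKM (19.3 ± 3.51), and the 21 without a stem-loop held 21%, with 18.9, 18, and 16.7 FPKM (17.9 ± 1.09). By summed FPKM the extended group was highest in each library, but this rank turned on *Hist3h2ba*. Without it the other 22 genes summed to 19.1, 15.6, and 16.1 FPKM, below the group ending within 100 bases in replicates 1 and 3 and below the group without a stem-loop in replicates 2 and 3. The median gene level of the extended group was 0.320 FPKM, against 0.406 and 0.363 FPKM in the others. FPKM divides by the length of the model, which the grouping also rests on, and by counts the order differed. The extended group had 596, 469, and 423 counts, of which *Hist3h2ba* gave 220, 145, and 112. The group ending within 100 bases had 197, 142, and 181, and the group without a stem-loop 183, 193, and 159. By counts the other 22 extended genes thus stayed highest in each library. The counts do not show where along a gene the reads lie, so the use of a later poly(A) site was not tested.

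Histone genes outside the clusters had far higher levels in the same poly(A) libraries. Because mRNAs that end in the stem-loop lack a poly(A) tail, these levels do not compare the amounts of mRNA in the cells. All 11 replication-independent variant genes reached 1 FPKM in each library, with a median of 62.5 FPKM and a sum of 1628 ± 130 FPKM, against 68.3 ± 10.2 FPKM for all 67 clustered genes. *H2afz*, which encodes H2A.Z, was at 514, 449, and 458 FPKM (474 ± 35.1), and the H3.3 genes *H3f3b* and *H3f3a* were at 452 ± 35.6 and 263 ± 37.9 FPKM. *H2afx*, whose product is phosphorylated at DNA breaks, is a particular case because it has the stem-loop printed above and is also known to give a polyadenylated mRNA. It was at 153, 135, and 141 FPKM (143 ± 9.20), above the sum of the clustered genes in every library.

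Germ cell variants were near or at 0, with 6 of 8 without a count and *H3f3c* alone detected at 23.0 ± 1.19 FPKM. *H3f3c*, a processed pseudogene in the table, is a near copy of the *H3f3* genes, so this value is uncertain. The 3 rows of the same name stems that are not protein-coding, *Hist1h2aj*, *Hist1h2al*, and *Hist3h2bb-ps*, had at most 6 counts in a library.

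Genes that make and handle histone mRNA were expressed. Of 20 genes listed for histone transcription and 3′ end processing, 19 were found in the table and 18 reached 1 FPKM in each library, with a median of 17.1 FPKM. *Slbp*, whose product binds the stem-loop, was at 33.3, 29.6, and 31.6 FPKM (31.5 ± 1.83). The U7 snRNP genes *Lsm10* and *Lsm11* were at 17.1 ± 3.61 and 3.88 ± 0.310 FPKM. *Npat*, which encodes the activator of histone transcription at the histone locus body, was at 8.27 ± 1.45 FPKM, and *Casp8ap2*, a component of the same body, at 10.6 ± 1.69 FPKM. The exception was *Nfya*, at 0.429 ± 0.0842 FPKM, a subunit of the factor that binds CCAAT boxes, named here after its value had been seen.

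S phase genes reached 1 FPKM in 19 of 19 cases, with a median of 64.3 FPKM, led by *Pcna* at 221 ± 9.03 and *Mcm3* at 142 ± 3.23 FPKM. Likewise, 17 of 17 histone chaperone genes reached 1 FPKM, with a median of 20.3 FPKM, led by *Nap1l1* at 225 ± 15.4 and *Nasp* at 150 ± 5.76 FPKM. In the same libraries the clustered histone genes had a median of 0.380 FPKM.

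Genes for RNAs known to lack a poly(A) tail in some or all of their forms were listed for comparison. Of the 10 rows, 7 had 0 counts in every library, among them the U7 RNA gene *Rnu7* and both *Rmrp* rows. *Rn7sk* had 13, 7, and 6 counts. *Malat1* at 19.1 ± 7.64 and *Neat1* at 1.69 ± 0.0489 FPKM were the other detected rows. By biotype, 1254 of 1385 snRNA genes, 1341 of 1507 snoRNA genes, 36 of 51 scaRNA genes, and 323 of 354 rRNA genes were at 0 in all libraries, whereas 9 of 67 clustered histone genes were. These biotypes were not absent, since 48 snoRNA genes reached 1 FPKM in each library. The snoRNA genes summed to 1000 ± 184 FPKM, with the highest at 543 FPKM. Both mitochondrial rRNA genes were detected and summed to 372 ± 78.2 FPKM. The part that poly(A) selection has in the low histone levels was not tested, because no library without selection was analysed here.

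**Figure D3:**
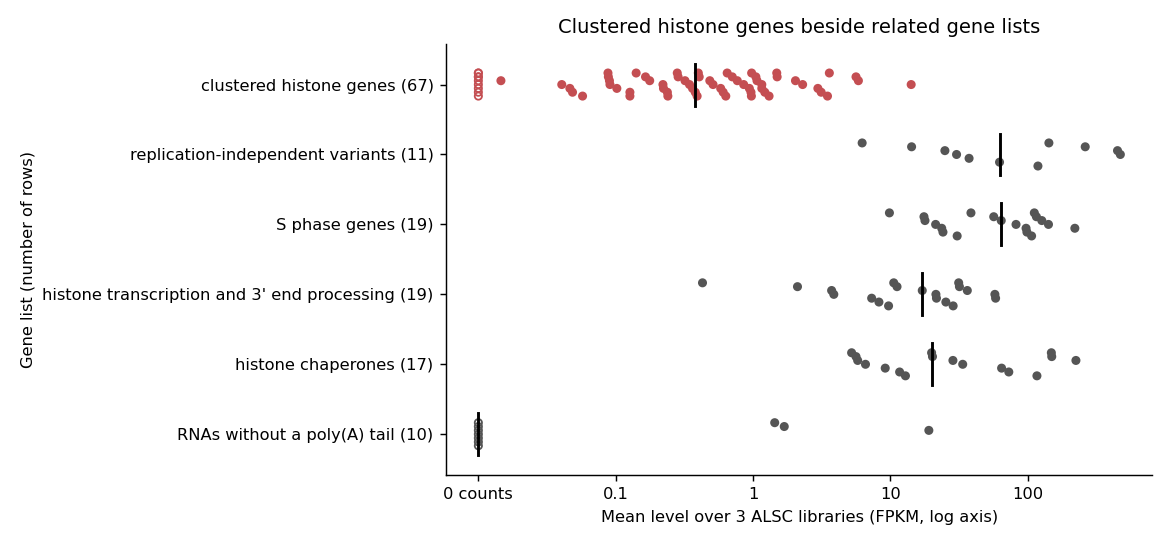
Mean level over the 3 ALSC libraries in FPKM (log axis) of each gene of the clustered histone set and of 5 related lists, with open points for 0 counts and a vertical bar at each list's median. The clustered histone genes have a median of 0.380 FPKM, against 62.5 for replication-independent variants, 64.3 for S phase genes, 17.1 for transcription and 3′ end processing genes, and 20.3 for histone chaperones, and the median of the RNAs without a poly(A) tail is at 0.

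With 1 condition there is no contrast between groups, so it was asked whether single members differed between the 3 libraries by more than counting error. A chi-square test of a gene's counts against the TMM library sizes was run for all 16944 named genes with at least 10 counts in total and adjusted by the Benjamini-Hochberg method over all of them. It compares libraries and not conditions. Of all genes, 47.2% were called at an adjusted p below 0.05, and of the 45 members tested 6 were called (13.3%), with 10 below an unadjusted 0.05. Because the members have few counts, the nearer background is the 14.9% called among genes with 10 to 99 counts, where 5 of 39 members (12.8%) were called. The members' share was near this background.

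All 6 were highest in replicate 1, as were 46.4% of all genes called and 77.2% of the called genes of 1000 bases or less. Among called genes with 10 to 99 counts, the range of 5 of the 6 members, the share was 37.6%. It was 54.9% among those that were also of 1000 bases or less. *Hist3h2ba* had an adjusted p of 6.45e-10 for its 220, 145, and 112 counts. *Hist1h1a* (26, 16, and 5 counts) and *Hist1h4h* (18, 4, and 5 counts) followed with adjusted p = 0.00157 and 0.00170. *Hist1h2bh* (11, 0, and 4 counts), *Hist1h2an* (10, 2, and 1 counts), and *Hist1h4a* (10, 1, and 4 counts), which are named after their values had been seen, had adjusted p = 0.00350, 0.00624, and 0.0230. An exact multinomial test called all 6 as well, and in addition *Hist3h2a* (7, 5, and 0 counts, adjusted p = 0.0414).

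Without replicate 1, 0 of 34 members were called by the chi-square test (4 at an unadjusted p below 0.05), against 8.11% of all genes. Of the 6 genes called above, *Hist3h2ba* and *Hist1h1a* could be tested again, with adjusted p = 0.347 and 0.149, and the other 4 had fewer than 10 counts left. When edgeR's common dispersion was added to the variance, 0 of 45 members were called (7 unadjusted) and 0.543% of all genes. That dispersion was estimated from the same libraries and itself depended on replicate 1, with a biological coefficient of variation of 0.153 for all 3 and 0.0530 without it. What separates replicate 1 from the others was not tested, since the labels give no difference between them.

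**Figure D4:**
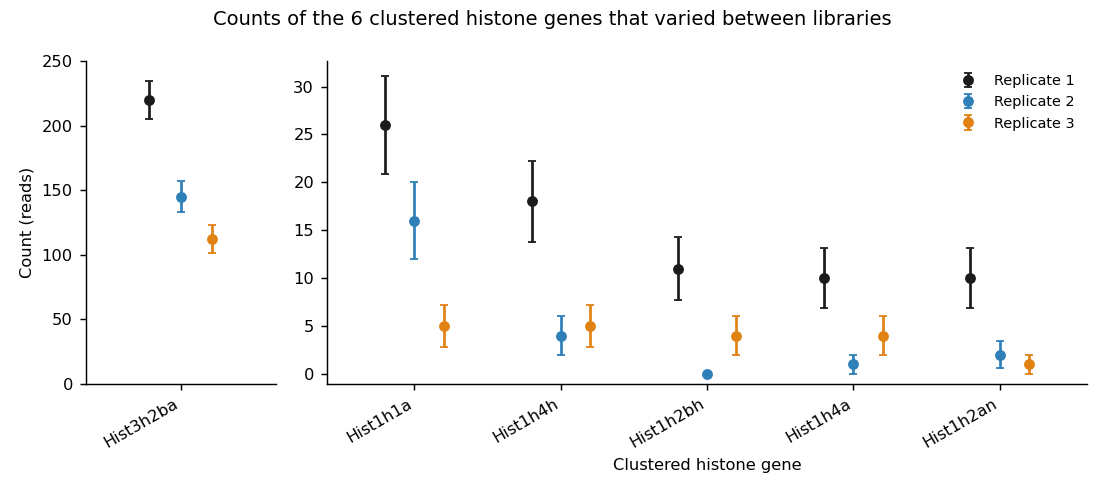
Counts (reads, linear axes of 2 ranges) of the 6 clustered histone genes called as varying between libraries; each point is 1 library and the bars are the square root of the count. Replicate 1 is highest for all 6, at 220 counts for *Hist3h2ba* and 10 to 26 counts for the others.

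For the 20 members that averaged 10 counts or above per library, log2 ratios of TMM-scaled counts between libraries were computed. The median log2 ratio was 0.35 for replicate 1 over 2, with 14 genes above 0 and 6 below, and 0.33 for replicate 1 over 3, with 12 above and 8 below. For replicate 2 over 3 it was 0.10. The median over all 14519 genes with the same filter was within 0.01 of 0 for each pair. By type, the medians for replicate 1 over 2 and over 3 were 0.46 and 0.39 for 5 H1 genes, 0.59 and 0.03 for 2 H2A genes, 0.61 and 0.67 for 4 H2B genes, 0.13 and 0.77 for 5 H4 genes, and -0.16 and -0.31 for 4 H3 genes.

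Histone gene models are short, with a median of 539 bases against 4070 for the genes that reached 1 FPKM, and short genes as a whole were higher in replicate 1. The median log2 ratio over all 1064 genes of 1000 bases or less was 0.40 for replicate 1 over 2 and 0.30 for replicate 1 over 3, and that over 5747 genes longer than 5000 bases was -0.24 and -0.22. After the trend on length was subtracted, the members' medians were -0.07 and 0.03. That trend was taken from genes that averaged 100 counts or above. Its shortest group, with a median of 685 bases, stood at 0.432 and 0.339, and shorter members received these values. For 665 of the 1064 short genes, with counts in a lower range nearer to that of the members, the medians were 0.27 and 0.20, against the members' 0.35 and 0.33. The values subtracted from short members were thus larger than the medians of short genes in that range. *Hist3h2ba*, with log2 ratios of 0.73 and 1.02, lay above its length group's median in both.

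**Figure D5:**
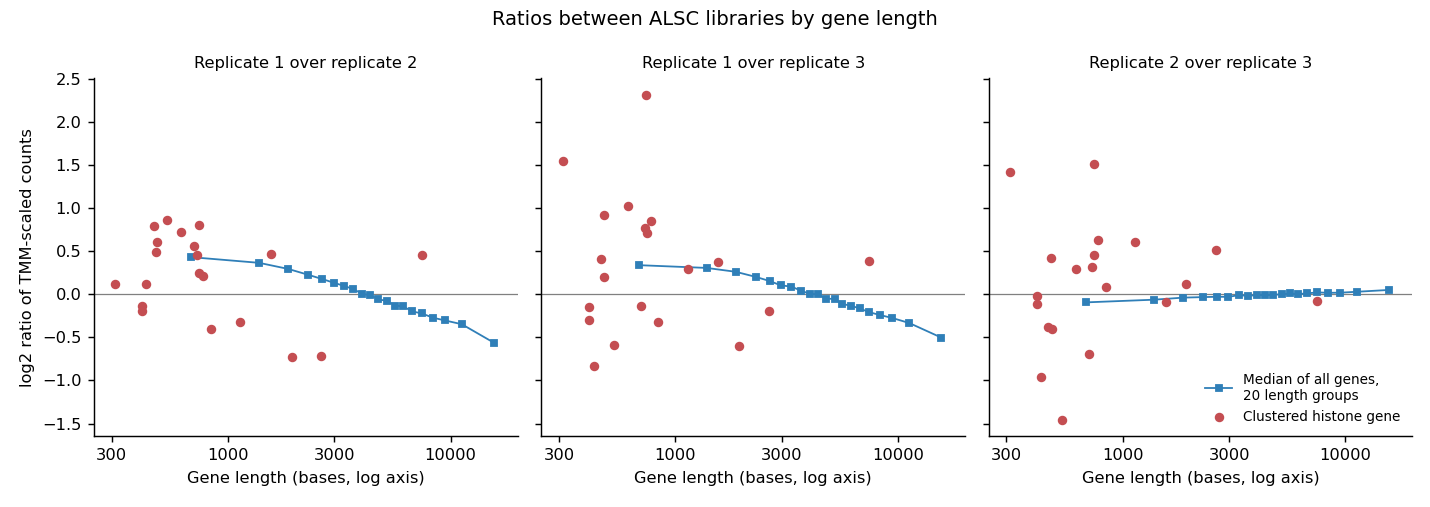
The log2 ratio of TMM-scaled counts between pairs of ALSC libraries against gene length (bases, log axis); red points are the 20 clustered histone genes that averaged 10 counts or above, and blue squares are medians over all genes that averaged 100 counts or above, in 20 groups of length. In both panels with replicate 1 the blue line falls from above 0 for short genes to below 0 for long genes. Most red points lie toward its left end, scattered above and below it. Away from that end, *Hist1h1d* (7425 bases) lies above the line at 0.46 and 0.39, and *Hist2h2be* (2620 bases) lies below it at -0.71 and -0.20.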

How the data were processed

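The authors deposited 1 table of raw read counts per gene for the 3 ALSC libraries, not normalized, beside each gene's identifier, coordinates, and length. The libraries were prepared from poly(A) RNA with a TruSeq kit. Extraction was by Trizol per the labels, whereas the paper's methods name a column kit. Reads were paired-end and mapped to GRCm38, and the submitters' processing notes name HISAT2 2.0.5. The counting program, its strand setting, and its handling of reads with several positions are not given in the sources used here. The table's 3 other count columns belong to no sample analysed here and were not used. The 317 rows without a gene name, which held 0.165 to 0.182% of the counts, were left out.

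FPKM was computed from the counts, the deposited gene length, and the library total on named genes. The length equalled the exon union of GENCODE M21 for 67 of 67 members. Counts at or below 3 were taken as the floor. TMM factors (0.970, 1.02, and 1.01) came from edgeR 4.0.16, with DESeq2 1.42.0 as an alternative (R 4.3.3). Tables and plots were made with Python 3.11.15 (pandas 2.3.3, SciPy 1.17.1, matplotlib 3.10.9, NumPy 2.4.6). Log2 ratios used a pseudocount of 0.5 counts. Promoters were matched to RefSeq by Entrez identifiers in the GENCODE tables.

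Before use, the test of variation was checked on simulated data in which known genes had been changed in 1 library. The counts were drawn with counting error only, and the 200 changed genes averaged 10 counts or above. Of these, 151 were called at a 1.5-fold change and 195 at a 3-fold change, beside 8 and 4 unchanged genes. The check does not cover spread beyond counting error, nor changes in genes with fewer counts. The changed genes were drawn from all 14519 genes with that average, of which 10577 averaged 100 counts or above. Of the 45 members tested, 39 had 10 to 99 counts in total. The shares called were not worked out for genes with as few counts as the members.

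Members and gene lists were chosen with earlier results of these data known. Named members are the 4 highest of each type, the highest of each cluster, the 3 of at least 1 FPKM with the largest chi-square per count, models over 2000 bases, and the testis variants.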

Additional observations from a re-analysis of the deposited data

How the results depend on the processing

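Of the values that answer a comparison, 74 recomputed under an alternative stayed close to the value given and 11 moved. The number of clustered histone genes that reached 1 FPKM in each library was 10, and it rose to 20 at a threshold of 0.5 FPKM and to 33 when more than 3 counts in every library were asked for. The number called as varying between libraries was 6 and fell to 2 of 20 tested with at least 30 counts in total (53.9% of all genes) and to 0 with the negative binomial variance, and leaving out 1 replicate at a time gave 0 to 6. Without replicate 1, 4 of the 6 genes had too few counts to be tested. The 6 calls without replicate 2 shared 4 genes with the 6 of all libraries, and those without replicate 3 shared 5. The exact test, chosen after the data had been seen, called 7. The trends on length and GC content were taken from genes that averaged 100 counts or above. The median log2 ratio of replicate 1 to 2, 0.35, became -0.07 with the trend on length removed and -0.03 when GC content was removed as well. That of replicate 1 to 3, 0.33, became 0.03 and 0.05. That of replicate 2 to 3, 0.10, became -0.10 both with a mean of at least 30 counts (6 members) and with a mean of at least 1 count (52 members). Levels of single genes in TPM were higher than in FPKM by construction, which moved 29 of them by more than 1 SD. Without *Hist3h2ba*, a choice made after the data had been seen, the summed level of the genes that extend past the stem-loop was 16.9 ± 1.89 FPKM in place of 31.1. With the length of the longest coding transcript 1 gene moved, and TMM or DESeq2 library sizes moved none. No paired analysis was possible because all libraries belong to 1 condition. Depth limits the 19 members with at most 3 counts in every library, for which no level above the floor can be given.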
